A study of Sus scrofa with 12 samples.

Results

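SLC20A2, NT5E, ENPP1 and ANKH, 4 genes that handle inorganic phosphate or pyrophosphate outside the cell or at its membrane, were followed in pig aortic valve interstitial cells in culture. They were chosen by name: of 6 names asked for, these 4 stand as a gene name in the deposited table of 22861 genes. No row named SLC20A1 was found, so that gene is not analysed here. ABCC6 stands in the name column of no row, and an unnamed row that matches it by identifier is described on its own further on.

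Mineral forms where phosphate and calcium meet on a matrix, and inorganic pyrophosphate, 2 phosphates joined, inhibits the growth of the crystals. SLC20A1 and SLC20A2 are sodium-dependent transporters that bring phosphate into the cell. ENPP1 is an ectoenzyme that cuts extracellular ATP into AMP and pyrophosphate, and ANKH is a membrane protein needed for the export of pyrophosphate and ATP. NT5E, also called CD73, takes the phosphate off extracellular AMP and leaves adenosine, which is known to restrain tissue-nonspecific alkaline phosphatase, the enzyme that breaks pyrophosphate down. ABCC6 is a transporter, known mainly from liver, on which the release of ATP into the circulation depends. Loss of ENPP1, NT5E or ABCC6 is known to cause calcification of arteries in people.

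Valve interstitial cells are the fibroblast-like cells of the leaflet, and in culture on a stiff surface they can form calcified nodules. All 12 libraries came from porcine cells grown in DMEM on glass, which the labels name as the calcification stimulus, and they form 4 groups of 3 biological replicates. Stage 1 was taken at day 5 and Stage 2 at day 8, both with no agent, whereas Stage 3+DMSO received the solvent DMSO and Stage 3+KPT received KPT, each at Stage 3. The labels give neither the day of the Stage 3 libraries nor the dose or duration of KPT. The labels do not spell KPT out, and KPT code names are known from inhibitors of the nuclear export receptor XPO1. The cultures may or may not stem from different pigs, which the labels leave out, and p-values measure the spread between these cultures. The Stage 3 groups differ from Stages 1 and 2 in stage and in solvent at once, and these cannot be told apart.

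Library totals recovered from the values ran from 13188023 to 24724019, and replicates of one group correlated at 0.985 to 0.994. Of 15 interstitial markers 14 passed the filter, and no row named COL1A1 was found. The summed RPKM of the 14 was 56546 to 57531 per library at Stage 1, 61460 to 64968 at Stage 2, 50862 to 54141 in Stage 3+DMSO and 32546 to 33473 in Stage 3+KPT. RPKM is the number of reads per kilobase of exon, scaled to the size of the library, and levels of different genes are compared on that scale. Reads summed over genes exceed the totals used for that scaling, at 23287593 against 13188023 in replicate 1 of Stage 1. Whether this affects all genes alike is not known, so levels and ratios between genes are approximate. Of 12 endothelial markers 6 passed the filter, among them ERG, EGFL7 and PECAM1, and the summed RPKM of the list was 84.1 to 116 in the untreated and DMSO libraries and 69.5 to 73.9 with KPT. By the test given below, 1 of the 6 was higher in Stage 3+KPT than in Stage 3+DMSO, 3 were lower and 2 did not pass. ERG, the most abundant, went from 61.0 ± 7.42 to 26.6 ± 1.03 RPKM. EGFL7 went the other way, from 26.7 ± 3.12 to 33.4 ± 3.05 RPKM. The defining endothelial genes VWF and KDR stayed under the filter, and of 12 leukocyte and 9 cardiomyocyte markers 2 and 1 passed it, with summed RPKM of at most 16.2 and 1.94. Replicate 1 of Stage 3+DMSO stood apart from the other two replicates of its group, with chi-square values per degree of freedom of 41.2 and 47.9 against 13.2 between those. Replicate 1 of Stage 2 did so to a lesser degree, at 16.7 and 26.8 against 7.37, and without it no call of the 4 genes changed.

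The 4 genes were read at very different levels. At Stage 1, NT5E averaged 140.6 ± 2.92 RPKM (SD, n = 3), SLC20A2 20.2 ± 1.44, ANKH 16.7 ± 0.799 and ENPP1 13.1 ± 0.493. NT5E thus had the highest RPKM of the 4, and over all libraries its mean lay above 95.6% of the genes tested. The means of ANKH, SLC20A2 and ENPP1 lay above 82.8%, 61.0% and 54.9% of them. The counts behind these values were 4850 to 30462 reads per library for NT5E, 414 to 5439 for ANKH, 382 to 1633 for SLC20A2 and 518 to 1828 for ENPP1.

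**Figure D1:**
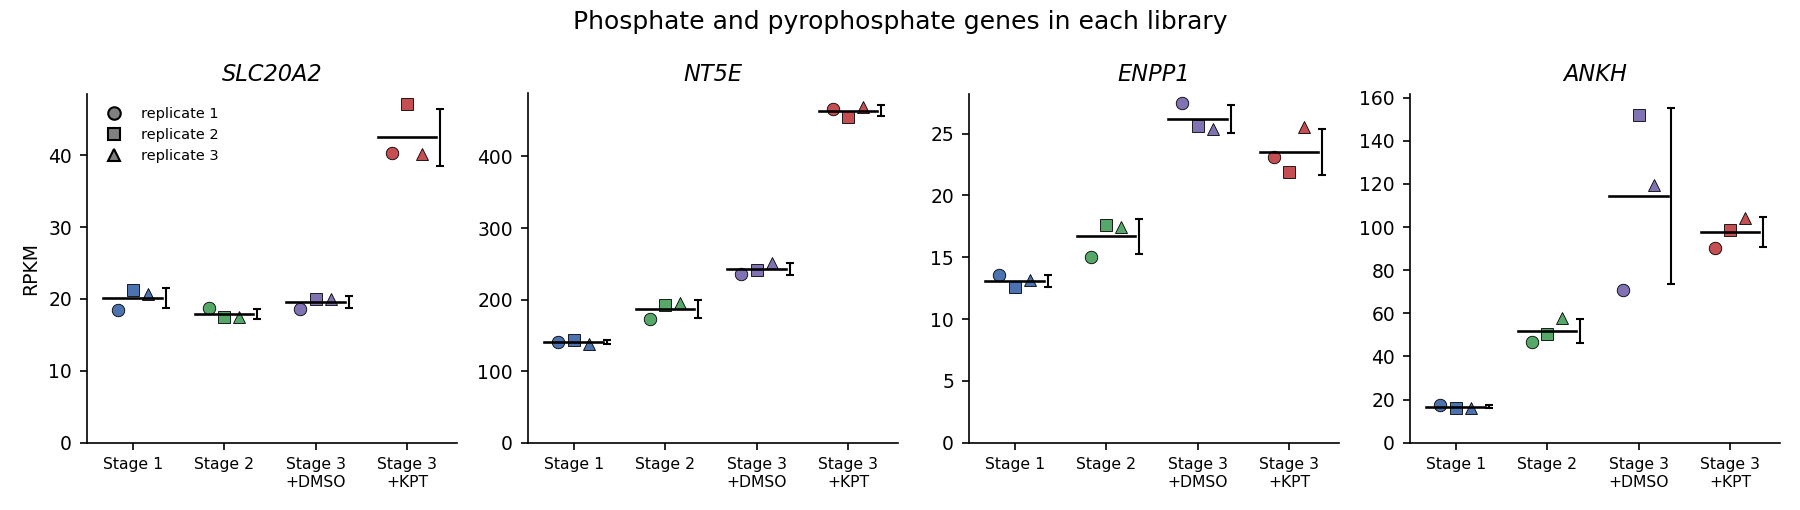
RPKM (vertical axis, each panel on its own scale from 0) of SLC20A2, NT5E, ENPP1 and ANKH in each of the 12 libraries, by group; the horizontal line is the mean of 3 libraries and the bar beside it 1 SD either way. SLC20A2 stands at 17.5 to 21.3 RPKM in the 9 libraries without KPT and at 40.1 to 47.1 in the 3 with it, whereas the ANKH libraries of Stage 3+DMSO spread from 71.0 to 152 RPKM.

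From the libraries labelled Stage 1 to those labelled Stage 2, 3 of the 4 genes passed the test and each was higher, and the same count was reached from Stage 2 to Stage 3+DMSO and from Stage 1 to Stage 3+DMSO. A gene passed when limma, fitted to all tested genes, gave a Benjamini-Hochberg adjusted p under 0.05. Such changes were common: 40.7%, 44.1% and 47.7% of the 13046 genes tested passed in either direction in those 3 comparisons. As higher, 16.3%, 33.0% and 30.5% passed. A count of 3 of 4 thus says little of its own, and the sizes below carry the description. Mineral itself is not among the values used here, and the stages are those of the labels. Of the 14 interstitial markers 10 were higher and 1 lower from Stage 1 to Stage 2, 3 and 7 from Stage 2 to Stage 3+DMSO, and 9 and 4 from Stage 1 to Stage 3+DMSO, and their part in the changes of the 4 genes was not tested. Between Stage 3+KPT and Stage 3+DMSO 2 of the 4 passed, each higher, where 60.0% of all genes passed in either direction and 30.5% as higher. All 4 passed, each higher, in Stage 3+KPT against Stage 1 and against Stage 2. There 66.8% and 67.5% of all genes passed in either direction, and 39.4% and 42.5% as higher. Overlap of groups is given below for single genes as a description, and its share over all genes is not given.

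Import of phosphate is covered by SLC20A2 (ENSSSCG00000007027, chromosome 17, 12887493 to 12901718, minus strand, 5 exons of 1563 bases in all; coordinates are those of the deposited table, whose genome build neither the labels nor the headers name). Its 3 Stage 1 libraries read 18.5, 21.3 and 20.7 RPKM, in the order of replicates 1 to 3. At Stage 2 the values were 18.7, 17.5 and 17.5, and in Stage 3+DMSO 18.6, 20.0 and 20.0. These 3 groups overlapped, and no comparison among them passed the test. The log2 fold change was -0.16 from Stage 1 to Stage 2 (adjusted p = 0.144) and -0.04 from Stage 1 to Stage 3+DMSO (adjusted p = 0.698), with 95% intervals of -0.34 to 0.02 and -0.22 to 0.14. From Stage 2 to Stage 3+DMSO it was 0.12 (adjusted p = 0.269, interval -0.06 to 0.30), and its sign turned under both rescalings of the libraries.

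With KPT, SLC20A2 read 40.3, 47.1 and 40.1 RPKM, and the lowest of these libraries stood above every library of the other groups. Its mean of 42.5 ± 3.98 RPKM was 2.17 times that of Stage 3+DMSO, 19.5 ± 0.845. On the log2(RPKM + 1) scale, which is used for all fold changes here, that was a rise of 1.08 (SE 0.08, adjusted p = 1.86e-07). Against Stage 1 and Stage 2 the rises were 1.04 and 1.20. Adding 1 makes the fold changes of genes at low RPKM smaller, so rankings of genes by size of change hold on this scale. Ordered by level, Stage 2, Stage 3+DMSO and Stage 1 did not differ beyond their spread, and Stage 3+KPT lay above all of them. RNA came from whole cultures, so more cells that carry the transcript and more transcript per cell cannot be told apart, for this gene or any other here. Interstitial markers moved in the same comparison, and not all one way: of 14 tested, 3 were higher with KPT, 7 lower and 4 did not pass. The lower sum given above was carried by abundant genes, with ACTA2 at 8571 ± 1149 RPKM in Stage 3+DMSO and 2278 ± 242 with KPT, VIM at 10719 ± 810 and 4606 ± 198, and COL1A2 at 8569 ± 799 and 3989 ± 171. POSTN went the other way, from 1068 ± 130 to 2872 ± 210 RPKM (1.43, adjusted p = 1.85e-06), and DCN and LUM were higher by 0.34 and 0.33. The LUM call was lost without replicate 2 of Stage 3+DMSO, at 0.23, or without replicate 1 or 3 of Stage 3+KPT (adjusted p up to 0.106). The part of these markers in the result was not tested.

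Removal of phosphate from AMP is covered by NT5E (ENSSSCG00000004291, chromosome 1, 60831750 to 60879526, plus strand, 14 exon records over 2625 bases). The Stage 1 libraries read 140.1, 144 and 138 RPKM, and those of Stage 2 read 172, 192 and 195. In Stage 3+DMSO the values were 235, 242 and 251, and with KPT 467, 456 and 469. The 4 groups did not overlap at any step of this order, and every step passed the test. NT5E rose by 0.40 (SE 0.06, adjusted p = 1.47e-04) from Stage 1 to Stage 2 and by 0.38 (adjusted p = 1.75e-04) from Stage 2 to Stage 3+DMSO. The step from Stage 3+DMSO to Stage 3+KPT was larger, at 0.93 (SE 0.06, adjusted p = 2.07e-08), a ratio of means of 1.91. These steps share groups and their difference was not tested. From Stage 1 to Stage 3+KPT the mean rose 3.30 times, from 140.6 ± 2.92 to 464 ± 7.27 RPKM, a log2 fold change of 1.72. The interstitial markers that moved with KPT, 3 higher and 7 lower, stand beside this result too, and their part was not tested.

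Production of pyrophosphate from ATP is covered by ENPP1 (ENSSSCG00000004193, chromosome 1, 35243792 to 35281384, minus strand, 25 exons of 2894 bases). It read 13.6, 12.6 and 13.1 RPKM at Stage 1, 15.0, 17.6 and 17.4 at Stage 2, and 27.5, 25.6 and 25.4 in Stage 3+DMSO. None of these groups overlapped, and the mean of Stage 3+DMSO, 26.2 ± 1.16 RPKM, was 2.00 times that of Stage 1. ENPP1 rose by 0.32 (SE 0.08, adjusted p = 0.00837) from Stage 1 to Stage 2 and by 0.62 (SE 0.08, adjusted p = 9.05e-05) from Stage 2 to Stage 3+DMSO.

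With KPT the ENPP1 libraries read 23.1, 21.9 and 25.5 RPKM, with a mean of 23.5 ± 1.85, and they overlapped those of Stage 3+DMSO. The log2 fold change was -0.15 (95% interval -0.33 to 0.03, adjusted p = 0.141) and a difference was not shown. After quantile normalization the value was -0.21 and passed the test (adjusted p = 0.039). ENPP1 with KPT was above Stage 1 by 0.80 (adjusted p = 2.78e-06) and above Stage 2 by 0.47 (adjusted p = 2.71e-04). Its order of levels was therefore Stage 1, Stage 2, and then the 2 Stage 3 groups, which did not differ beyond their spread.

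Export of pyrophosphate is covered by ANKH (ENSSSCG00000016784, chromosome 16, 4446886 to 4611009, minus strand, 12 exons of 1777 bases). At Stage 1 it read 17.7, 16.3 and 16.3 RPKM, and at Stage 2 46.9, 50.3 and 58.0. In Stage 3+DMSO the libraries read 71.0, 152 and 119, and with KPT 90.2, 98.4 and 104. All Stage 2 libraries lay above all Stage 1 libraries and below all Stage 3 libraries, and the 2 Stage 3 groups overlapped, with the lowest and the highest value of the gene's Stage 3 range both in Stage 3+DMSO.

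ANKH had the largest change of the 4 genes in each comparison among Stage 1, Stage 2 and Stage 3+DMSO. The gene rose by 1.57 (SE 0.20, adjusted p = 7.54e-05) from Stage 1 to Stage 2, 3.09 times in mean, and that change was larger in size than those of 99.2% of all genes tested. From Stage 2 to Stage 3+DMSO it rose by 1.06 (SE 0.20, adjusted p = 9.73e-04), and by 0.83 to 1.37 when any one library was left out. Over the whole course to Stage 3+DMSO it rose by 2.63 (SE 0.20, adjusted p = 5.72e-07), from 16.7 ± 0.799 to 114 ± 40.8 RPKM, a change larger than those of 99.7% of all genes.

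The comparison of ANKH between KPT and DMSO turned on single libraries of Stage 3+DMSO. With all 3 the log2 fold change was -0.16 (95% interval -0.59 to 0.27, adjusted p = 0.512). Without replicate 1, which read 71.0 RPKM and is the library that stood apart from its group, it was -0.46 and passed the test (adjusted p = 0.00396). Without replicate 2, which read 152 RPKM, it was 0.08 (adjusted p = 0.715). Against Stage 1 and Stage 2, ANKH with KPT was higher by 2.47 (adjusted p = 2.26e-07) and 0.91 (adjusted p = 0.00139).

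**Figure D2:**
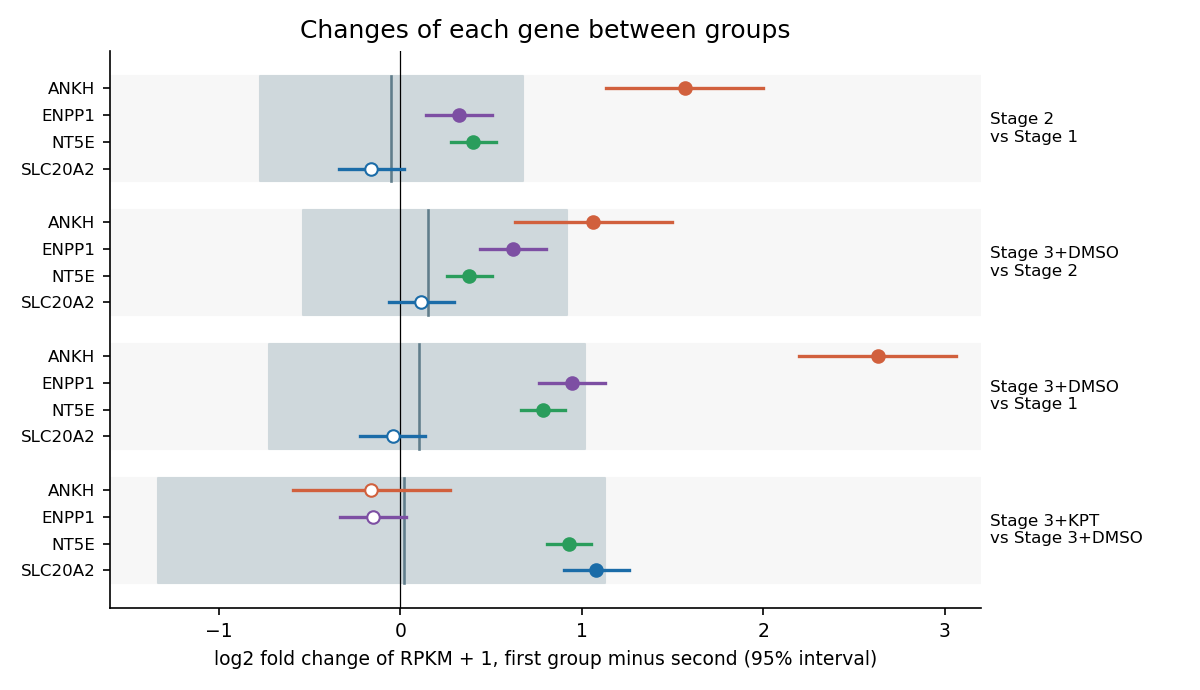
Log2 fold change of RPKM + 1 (horizontal axis, first group minus second) of each gene in 4 comparisons; points are estimates, bars 95% intervals from limma, filled points passed the test, the shaded band holds the middle 90% of all 13046 tested genes and the line in it is their median. ANKH lies outside the band in all comparisons among Stage 1, Stage 2 and Stage 3+DMSO, at 1.57, 1.06 and 2.63, whereas SLC20A2 and NT5E lie inside it with KPT at 1.08 and 0.93.

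Part of the upward shift at Stage 3 was shared by genes at large. The median log2 fold change of all tested genes was 0.15 from Stage 2 to Stage 3+DMSO and 0.10 from Stage 1, and rescaling the libraries by their median ratio moved those 2 comparisons by -0.16 and -0.11. On that scale the rises from Stage 2 to Stage 3+DMSO were 0.90 for ANKH, 0.46 for ENPP1 and 0.22 for NT5E, and all 3 still passed the test. Of the genes called between these groups 74.9% were higher on the main scale and 50.8% after the rescaling. The split was 40.1% and 49.0% from Stage 1 to Stage 2, and from Stage 1 to Stage 3+DMSO 63.8% and 48.4%. The rescaling gives all libraries the same median ratio, so a near-even split after it is largely built in. With KPT against DMSO the rescaling moved the median of all genes by -0.02, and SLC20A2 and NT5E rose by 1.06 and 0.91. Against Stage 1 and Stage 2 it moved that median by -0.12 and -0.17, and the 4 genes still passed in both.

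The balance between the genes within a library shifted as well, given here as a description of 3 libraries per group. For each unit of ENPP1, ANKH stood at 1.28 ± 0.0350 at Stage 1, 3.10 ± 0.240 at Stage 2, 4.41 ± 1.70 in Stage 3+DMSO and 4.16 ± 0.299 in Stage 3+KPT. On the RPKM scale, ANKH thus passed from near the level of ENPP1 at Stage 1 to several times that level. The ratio of NT5E to ENPP1, the enzymes that act one after the other on ATP and AMP, was 10.7 ± 0.586, 11.2 ± 0.293 and 9.30 ± 0.683 in Stage 1, Stage 2 and Stage 3+DMSO and 19.8 ± 1.26 with KPT. The lowest library with KPT, at 18.4, lay above the highest of the others, 11.5. ANKH relative to the importer SLC20A2 went from 0.835 ± 0.102 at Stage 1 to 5.79 ± 1.89 in Stage 3+DMSO, where it ranged from 3.82 to 7.59, and stood at 2.31 ± 0.259 with KPT, where it ranged from 2.09 to 2.59.

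The exon values show whether a change ran along a whole gene model, and exons of one gene share their libraries and are not replicates. Of all 123113 exons tested 15.1% passed from Stage 1 to Stage 2, 17.3% from Stage 2 to Stage 3+DMSO, 20.1% from Stage 1 to Stage 3+DMSO and 34.7% with KPT against DMSO. All 12 exons of ANKH were higher at Stage 2 than at Stage 1, by 1.21 to 1.87, and higher again in Stage 3+DMSO, by 0.95 to 1.29. None of the 12 passed between KPT and DMSO, where their log2 fold changes ran from -0.31 to 0.00 and each was at or below 0. All 5 exons of SLC20A2 were higher with KPT, by 1.06 to 1.27, and none passed in the comparisons among Stage 1, Stage 2 and Stage 3+DMSO.

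Of the 14 NT5E records 12 were tested, and 6 of those overlap another record and so share reads. All 12 were higher with KPT than with DMSO, by 0.73 to 1.22, and all 12 were higher in Stage 3+DMSO than at Stage 1. From Stage 1 to Stage 2, 10 of the 12 passed, and from Stage 2 to Stage 3+DMSO 9 did, all higher. Records 6 and 7 of the NT5E model held 0 and 18 reads over all libraries, so the RPKM of the whole model is a little below that of its expressed exons. ENPP1 has many short exons, and of its 25 none passed from Stage 1 to Stage 2, 8 passed from Stage 2 to Stage 3+DMSO and 21 from Stage 1 to Stage 3+DMSO, all higher. With KPT 1 ENPP1 exon passed, and it was lower.

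**Figure D3:**
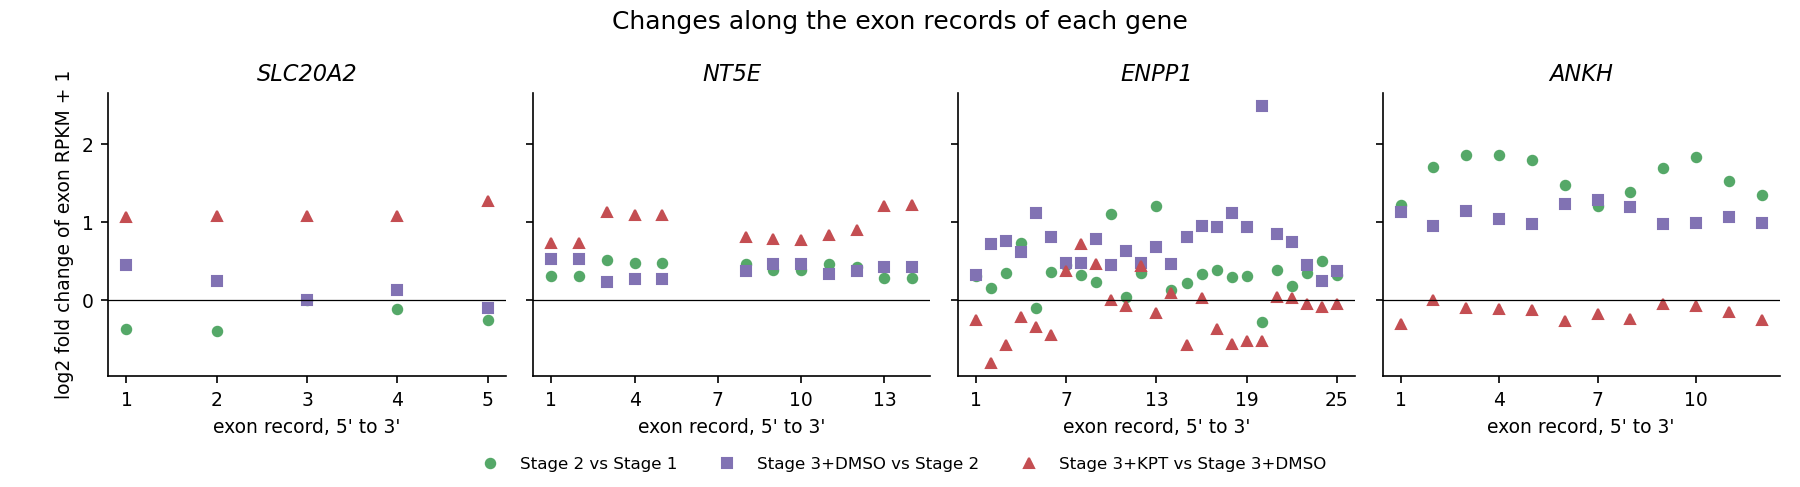
Log2 fold change of exon RPKM + 1 (vertical axis) for each exon record from the 5′ to the 3′ end (horizontal axis) of SLC20A2, NT5E, ENPP1 and ANKH, in 3 comparisons; NT5E records 6 and 7 were not tested. The 12 ANKH exons all lie above 0 in both comparisons without KPT, and the 5 SLC20A2 exons stand at 1.06 to 1.27 with KPT.

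ABCC6 is absent as a name, and the row whose identifier matches it (ENSSSCG00000007873, chromosome 3, 29026158 to 29061927, plus strand, 23 exon records) held reads over only part of its length. Its first 13 exons held 8 reads over all 12 libraries, with 0 to 3 in any library. Its last 10 exons, one of them a record of 1 base at 0, held 10675 reads, 474 to 1531 per library, at a median exon mean of 38.6 RPKM. A gene model next to it, named ABCC1 (ENSSSCG00000007874, 29068053 to 29172715, minus strand, 31 exons), showed the mirror picture. ABCC1, a multidrug exporter of the same family, held 20818 reads on its first 21 exons and 11 on its last 10.

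The whole-row value of the ABCC6-matched row stood in a steady ratio to that of ABCC1 in the same library, 0.702 ± 0.0264 at Stage 1, 0.684 ± 0.0166 at Stage 2, 0.708 ± 0.0432 in Stage 3+DMSO and 0.719 ± 0.0604 in Stage 3+KPT. Because one stretch of the model is silent and the other is not, the row is not given as a level of ABCC6, and it enters no count of the 4 genes. These stretches were chosen after the exon values were seen, and why the reads fall this way was not tested.

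**Figure D4:**
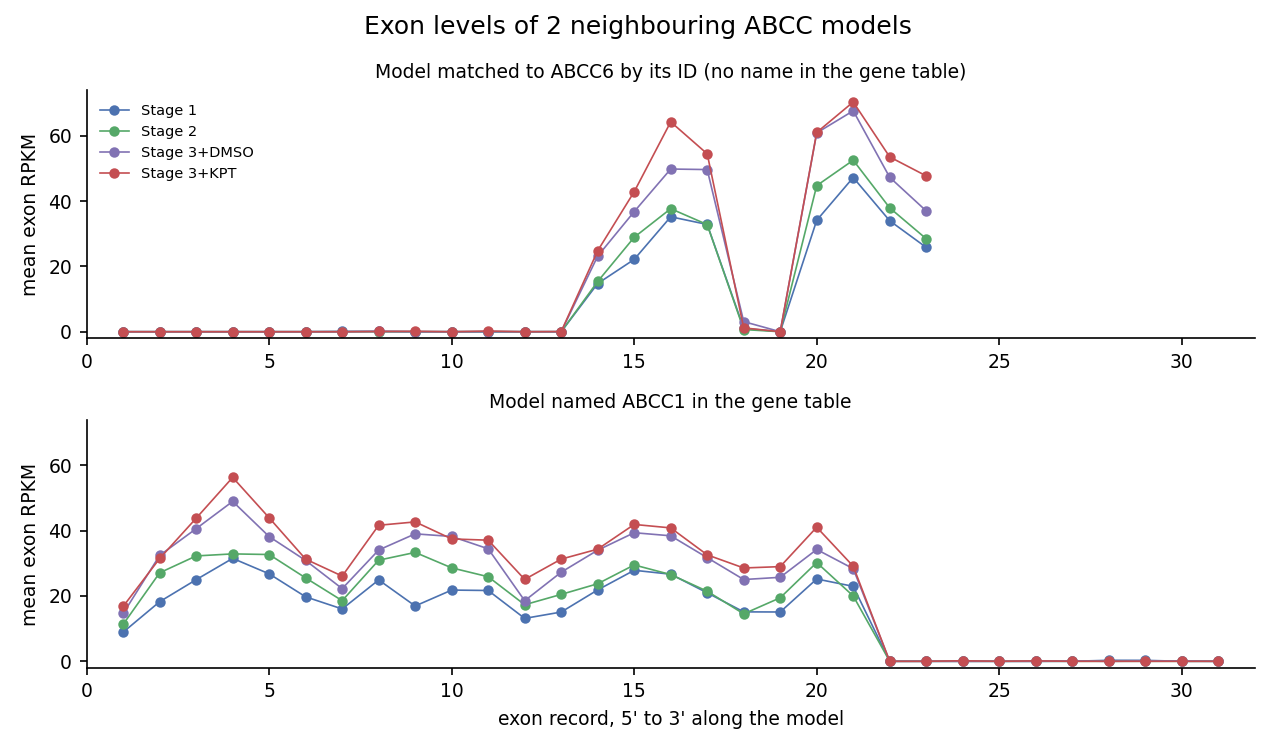
Mean exon RPKM over 3 libraries (vertical axis) of the row matched to ABCC6 by its identifier and of the neighbouring ABCC1 model, by exon record from the 5′ to the 3′ end (horizontal axis), 1 line per group. The first 13 exons of the upper model and the last 10 of the lower one lie at or near 0 in every group, and the remaining exons of both models carry the reads.

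Other genes of phosphate and purine handling were read from lists fixed by name, and the counts are set beside all genes tested. Of those, 16.3% were called higher and 24.4% lower from Stage 1 to Stage 2, 33.0% and 11.1% from Stage 2 to Stage 3+DMSO, 30.5% and 17.3% from Stage 1 to Stage 3+DMSO, and 30.5% and 29.5% with KPT against DMSO. In the phosphate transport list 5 of 12 genes were tested, with 1 higher and 1 lower both from Stage 1 to Stage 2 and with KPT, 1 higher and none lower from Stage 2 to Stage 3+DMSO, and 2 and 1 from Stage 1 to Stage 3+DMSO. XPR1, the phosphate exporter, rose with KPT from 5.34 ± 0.525 to 8.94 ± 0.330 RPKM, a log2 fold change of 0.65 (SE 0.09, adjusted p = 6.48e-05). SLC37A1, a glucose-6-phosphate and phosphate exchanger, rose from 4.56 ± 0.454 at Stage 2 to 9.58 ± 0.366 in Stage 3+DMSO, and its relative SLC37A2 fell with KPT by 0.52 (adjusted p = 3.90e-04). SLC34A2, the phosphate importer of intestine and lung, had a highest group mean of 0.104 RPKM, in Stage 3+DMSO, and no row named SLC34A1 or SLC34A3 was found.

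Among genes that sense or control phosphate 10 of 21 were tested. At Stage 2 against Stage 1, 3 were higher and 3 lower, from Stage 2 to Stage 3+DMSO 3 and 1, from Stage 1 to Stage 3+DMSO 4 and 1, and with KPT 4 and 3. STC2, a secreted stanniocalcin, moved in opposite directions at successive steps: 32.3 ± 0.365 RPKM at Stage 1, 15.5 ± 1.68 at Stage 2, 36.6 ± 3.82 in Stage 3+DMSO and 14.8 ± 0.477 with KPT. Each of the 3 steps passed, at -1.02, 1.19 and -1.25. PTHLH, the hormone-like ligand of the receptor PTH1R, rose by 1.07 from Stage 1 to Stage 3+DMSO and by 1.57 (SE 0.18, adjusted p = 1.03e-05) with KPT, from 8.59 ± 2.62 to 26.8 ± 3.60 RPKM.

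PTH1R itself rose by 0.99 from Stage 1 to Stage 2 and fell by 0.59 (adjusted p = 0.00376) from Stage 2 to Stage 3+DMSO. With KPT it was lower again, by 1.19, from 2.19 ± 0.0469 to 0.408 ± 0.230 RPKM. FGFR1, a receptor that responds to FGF23 when Klotho is present, rose from 68.7 ± 1.59 RPKM at Stage 1 to 111 ± 6.26 in Stage 3+DMSO (0.68, adjusted p = 1.61e-06). FGF23, its coreceptor KL and the bone matrix genes PHEX, DMP1 and MEPE did not pass the filter on low values, MEPE being at 0 in every library.

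Of the phosphatases and pyrophosphatases 13 of 18 were tested. In Stage 3+DMSO against Stage 1, 9 were higher and 1 lower, with a median log2 fold change of 0.66 against 0.10 for all genes. The counts were 5 and 2 from Stage 1 to Stage 2, from Stage 2 to Stage 3+DMSO 6 and 0, and with KPT 5 and 4. LHPP, a phosphatase that also cleaves pyrophosphate, fell by 0.72 from Stage 1 to Stage 2 and rose by 1.26 (adjusted p = 3.24e-05) to Stage 3+DMSO, at 2.98 ± 0.359, 1.44 ± 0.449 and 4.81 ± 0.512 RPKM. SMPDL3A, which acts on nucleotides outside the cell, rose from 58.4 ± 10.5 RPKM at Stage 2 to 126 ± 18.8 in Stage 3+DMSO (1.10, adjusted p = 3.06e-05).

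Several members of that list that moved do not act on pyrophosphate. ENPP2, autotaxin, which makes lysophosphatidic acid, had the largest change with KPT, from 2.04 ± 1.17 to 16.2 ± 1.19 RPKM (2.56, SE 0.20, adjusted p = 2.79e-07). SMPDL3B, a membrane phosphodiesterase, rose by 1.32 with KPT. ENPP6, a choline phosphodiesterase, rose from Stage 1 to Stage 3+DMSO by 1.20 (adjusted p = 3.48e-04) and fell with KPT by 0.92 (adjusted p = 0.00155). In contrast, PPA2, the inorganic pyrophosphatase of mitochondria, does act on pyrophosphate. PPA2 fell with KPT by 1.02 (adjusted p = 0.00656), from 10.5 ± 4.16 to 4.55 ± 1.47 RPKM. Its relative PPA1 fell with KPT by 0.81 (adjusted p = 2.44e-05), from 46.7 ± 4.05 to 26.4 ± 3.90 RPKM. PPA1 was also lower than at Stage 1 both at Stage 2 and in Stage 3+DMSO, by 0.48 and 0.44 (adjusted p = 0.00308 and 0.00390). No row named ALPL, the tissue-nonspecific alkaline phosphatase, was found, and that gene is not analysed here, nor is ACP5. PHOSPHO1 and SMPD3, which act in matrix vesicles, did not pass the filter, and neither did ENPP3.

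ENPP1 uses ATP that has left the cell, and 9 of 12 genes of ATP release and breakdown were tested. At Stage 2, 4 were higher and 1 lower than at Stage 1, from Stage 2 to Stage 3+DMSO 1 and 5, from Stage 1 to Stage 3+DMSO 2 and 4, and with KPT 4 and 3. GJA1, connexin 43, whose hemichannels can release ATP, fell from 800.0 ± 47.4 RPKM at Stage 2 to 383 ± 47.1 in Stage 3+DMSO and stood at 2003 ± 107 with KPT, at log2 fold changes of -1.07 and 2.39 (adjusted p = 2.17e-06 and 3.05e-10). The channel PANX1 fell from 5.69 ± 0.522 to 2.78 ± 0.112 RPKM at Stage 2, rose to 6.58 ± 1.41 in Stage 3+DMSO and to 20.2 ± 0.451 with KPT, where the change was 1.50 (adjusted p = 5.18e-07). Its relative PANX2 went the other way at Stage 2, from 4.78 ± 0.318 to 8.09 ± 0.301 RPKM (0.66, adjusted p = 2.47e-04). With KPT PANX2 was also opposite to PANX1, falling from 9.74 ± 1.12 to 5.22 ± 0.101 RPKM (-0.78, adjusted p = 1.92e-05).

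The nucleotide enzymes of this list followed several courses. ENTPD1, CD39, which yields the AMP that NT5E uses, rose from 1.56 ± 0.295 to 3.29 ± 0.577 RPKM between Stage 1 and Stage 2 (0.74, adjusted p = 0.00301). ENTPD3, another ectoenzyme of that kind, fell from Stage 1 to Stage 3+DMSO by 0.94 (adjusted p = 6.35e-05). ENTPD4, ENTPD5 and ENTPD7 are enzymes of inner membranes, so the counts of this list do not describe ATP outside the cell alone. ENTPD4 fell by 0.90 from Stage 2 to Stage 3+DMSO, and with KPT ENTPD5 fell by 1.10 and ENTPD7 rose by 1.00. AK1, which converts adenine nucleotides into one another, rose by 0.98 from Stage 1 to Stage 2 and fell by 0.68 (adjusted p = 8.08e-04) to Stage 3+DMSO.

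Adenosine, the other product of NT5E, is taken up by nucleoside transporters, and 5 of 10 genes of uptake and reception were tested. Stage 2 had 1 higher and none lower than Stage 1, from Stage 2 to Stage 3+DMSO and from Stage 1 to Stage 3+DMSO 3 were higher and 1 lower, and with KPT none was higher and 2 lower. The main equilibrative transporter SLC29A1 rose from 11.04 ± 1.13 RPKM at Stage 1 to 26.5 ± 0.712 at Stage 2 and 46.2 ± 10.7 in Stage 3+DMSO, and stood at 13.2 ± 0.214 with KPT. Its 3 steps were 1.19, 0.76 and -1.71 (adjusted p = 3.08e-05, 6.80e-04 and 2.48e-07). SLC29A1 and NT5E thus both rose up to Stage 3+DMSO and moved in opposite directions with KPT. SLC29A3, a nucleoside transporter of lysosomes, rose by 1.01 from Stage 2 to Stage 3+DMSO, and ADA, which deaminates adenosine, fell with KPT by 0.90.

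Of 12 receptors for nucleotides 6 were tested, with 2 higher and 2 lower from Stage 2 to Stage 3+DMSO, 2 higher and none lower from Stage 1 to Stage 2, 2 and 1 from Stage 1 to Stage 3+DMSO, and 2 and 1 with KPT. P2RY1, a receptor for ADP, read 6.13 ± 0.430 RPKM at Stage 1, 8.76 ± 0.740 at Stage 2, 18.3 ± 4.93 in Stage 3+DMSO and 162 ± 3.02 with KPT. The change with KPT was 3.11 (SE 0.15, adjusted p = 2.83e-09). The rise of P2RY1 to Stage 2, 0.45 (adjusted p = 0.0311), lost its call when replicate 1 or 3 of Stage 1 or replicate 1 or 2 of Stage 2 was left out (adjusted p up to 0.0991), and with no filter or in the limma-voom fit (adjusted p = 0.0562 and 0.0622). The ATP-gated channel P2RX4 rose from 22.4 ± 2.38 to 49.1 ± 5.04 RPKM between Stage 2 and Stage 3+DMSO, P2RX7 rose by 0.70 to Stage 2 and then fell by 0.83, and the UDP receptor P2RY6 fell from 2.84 ± 1.07 to 0.223 ± 0.0890.

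In the ABCC transporter family, without the ABCC6-matched row, 5 of 8 genes were tested. None was higher and 1 lower from Stage 1 to Stage 2, from Stage 2 to Stage 3+DMSO 2 and 1, from Stage 1 to Stage 3+DMSO 3 and 2, and with KPT 3 and none. ABCC3, an exporter of conjugated organic anions, rose by 0.57 from Stage 2 to Stage 3+DMSO and by 0.83 with KPT, to 24.4 ± 1.34 RPKM. ABCC4, which exports cyclic nucleotides among other substrates, rose with KPT from 1.78 ± 0.239 to 4.33 ± 0.801 RPKM. The one lower at Stage 2 was ABCC10, at -0.47 (adjusted p = 0.0319), and that call was lost without any one replicate of Stage 1 and without replicate 1 or 3 of Stage 2 (adjusted p up to 0.0918). It was lost as well with no filter, after median-ratio rescaling and after quantile normalization (adjusted p = 0.0575, 0.0503 and 0.0613). From Stage 1 to Stage 3+DMSO ABCC10 was also lower, at -0.47 (adjusted p = 0.0265), and without replicate 2 of Stage 3+DMSO it was at -0.30 (adjusted p = 0.116), the call being lost as well without replicate 2 or 3 of Stage 1.

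**Figure D5:**
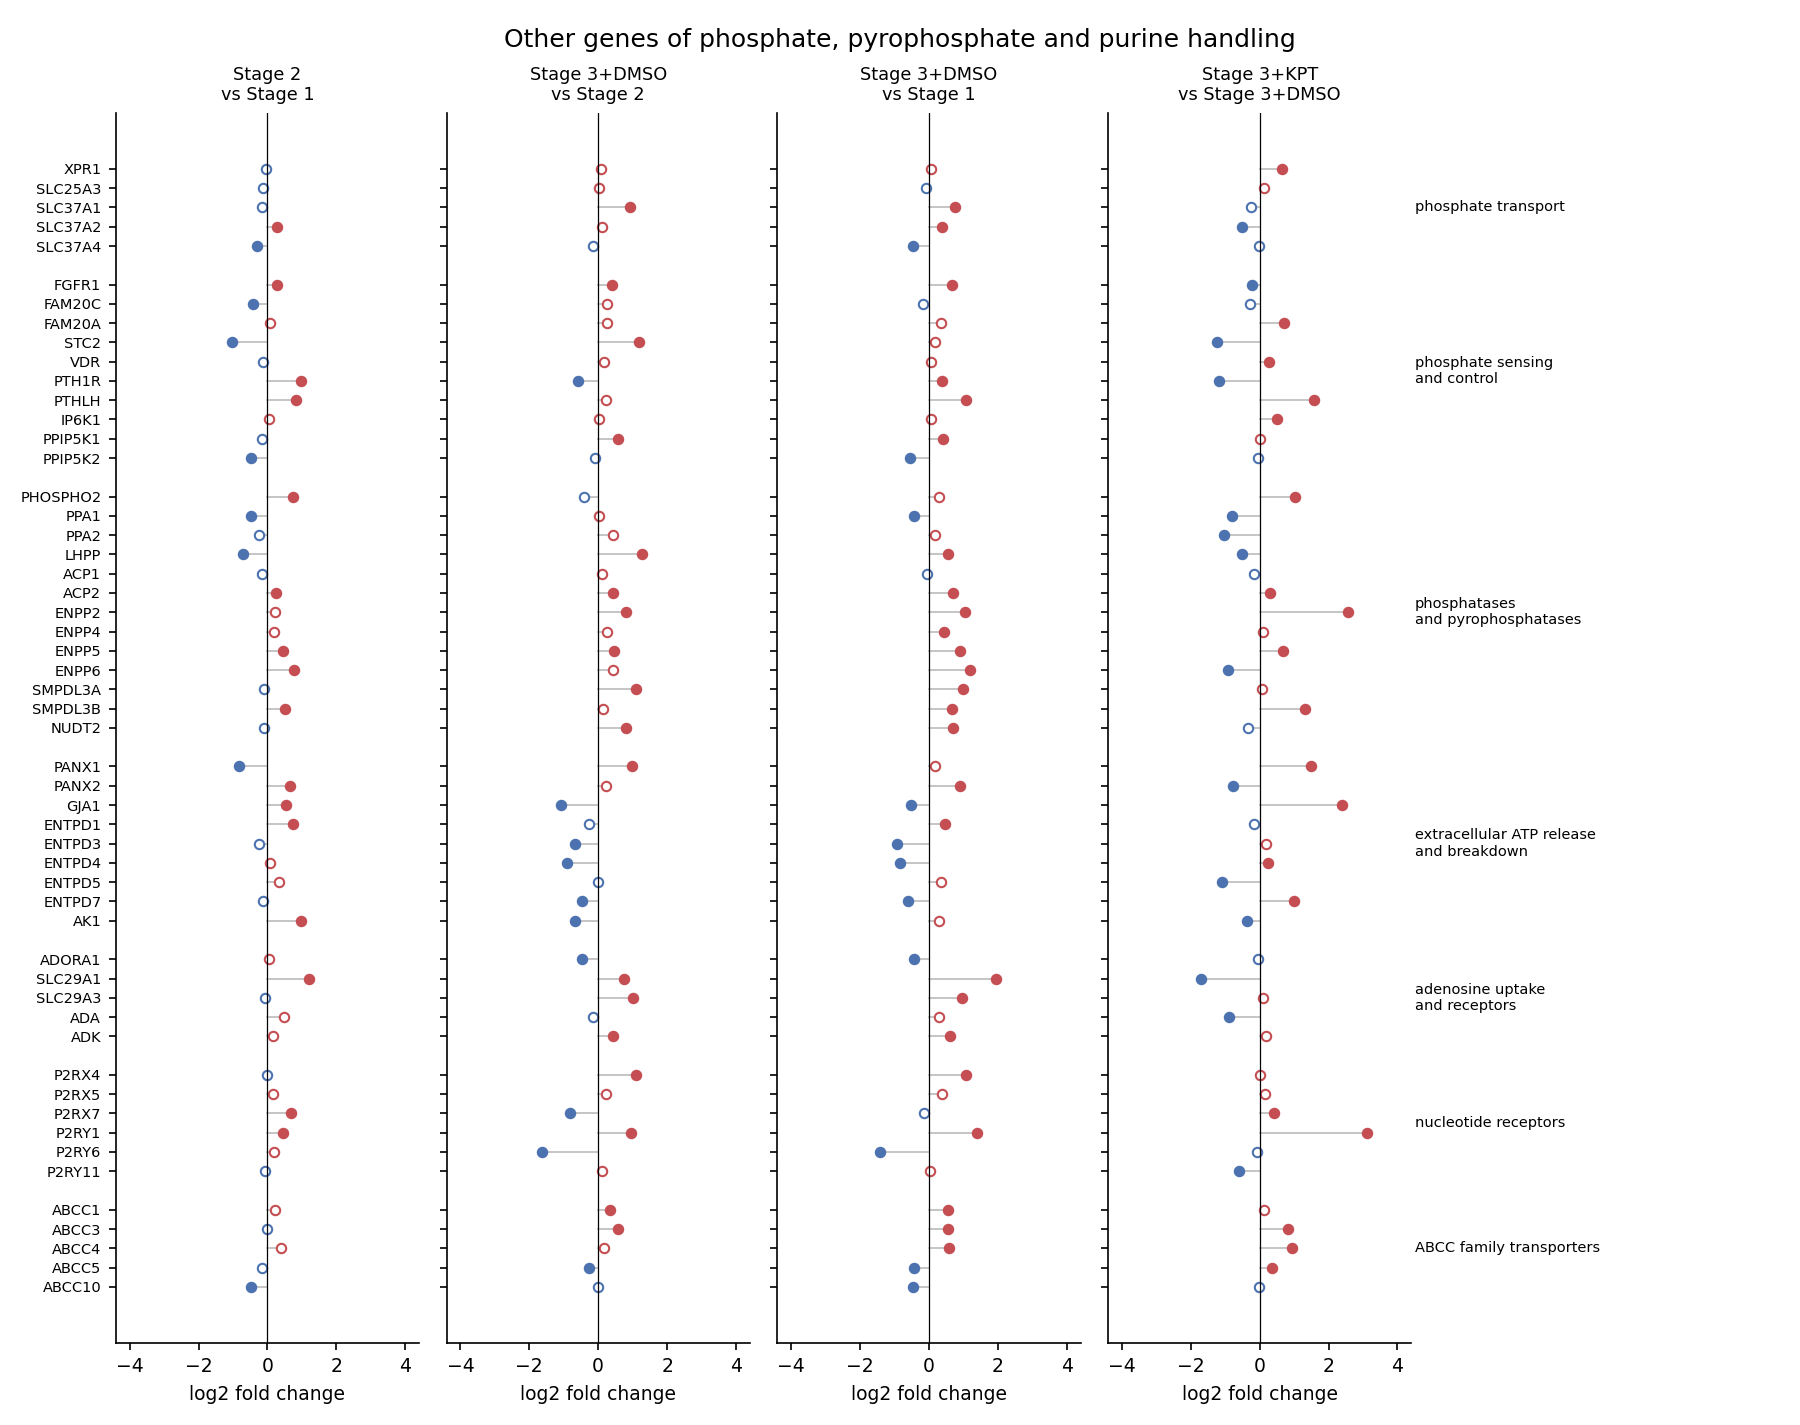
Log2 fold change of RPKM + 1 (horizontal axes) of each tested gene of the 7 context lists in 4 comparisons; red points are above 0, blue points below, and filled points passed the test. GJA1 at 2.39, ENPP2 at 2.56 and P2RY1 at 3.11 stand furthest to the right with KPT, and SLC29A1 at -1.71 furthest to the left.

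The genes most like each of the 4 in pattern were found by Pearson correlation of log2(RPKM + 1) over the 12 libraries, among 10778 other tested genes with a symbol. The libraries share 4 groups, so a high correlation mostly says that 2 genes have like group means, and no p is given. For ANKH these were ABHD4 (r = 0.985), SRXN1 (0.975) and PTN (0.972), and ABHD4, a lysophospholipase, read 16.0, 40.4, 82.3 and 69.4 RPKM in Stage 1, Stage 2, Stage 3+DMSO and Stage 3+KPT. The gene most opposed to ANKH was MORC2 (r = -0.980). For ENPP1 they were SUMF1 (0.988), SEPP1 (0.981) and ATP9A (0.979), and SEPP1, selenoprotein P, went from 11.02 to 67.7 RPKM between Stage 1 and Stage 3+DMSO and read 48.8 with KPT. The claudin CLDN6 was most opposed to ENPP1, at r = -0.984.

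For NT5E the likest genes were the growth factor PDGFC, MEGF9 and the lipid phosphatase PLPP3, each at r = 0.995. PLPP3 read 53.4, 98.1, 199 and 662 RPKM in the order of the groups, and ACTC1, cardiac alpha-actin, ran opposite to NT5E at r = -0.997, from 141 to 20.5 RPKM. For SLC20A2 they were DYNLRB1 (0.993), the bradykinin receptor BDKRB2 (0.992) and the aldose reductase AKR1B1 (0.991), and SEC24D was most opposed (-0.991). AKR1B1 read 112 to 146 RPKM in the means of the groups without KPT and 725 with it. Among the 4 genes themselves, ENPP1 and ANKH were most alike (r = 0.920), followed by SLC20A2 and NT5E (0.864), and SLC20A2 had its lowest values with ANKH (0.395) and ENPP1 (0.383).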

How the data were processed

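Messenger RNA of 12 cultures was sequenced after a stranded TruSeq preparation, per the labels' protocols. Per the submitters' processing notes, the aligner was TopHat2 2.1.0. The counter, its use of strand, the build and the annotation: not given in the sources used here. Values for 22861 genes and 189618 exons were deposited by the authors as RPKM and used as they stand. Multiplied by exon length and library total they gave whole reads for 100% of values (within 0.0001), which supplied the depths and a limma-voom fit added after seeing the data. Reads so recovered sum over genes to 23287593 to 43293744 per library, above the totals the values were scaled by, for which the labels give no reason.

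The main fit was limma 3.58.1 (R 4.3.3) on log2(RPKM + 1) with an expression trend, 1 coefficient per group over all 12 libraries and 6 contrasts, for the 13046 genes with RPKM of at least 1 in at least 3 libraries. A second fit covered 123113 exons. Calls were made at 0.05 after Benjamini-Hochberg adjustment over all tested genes. The method was tested on simulated data. The gene table names 15203 genes, and a table of identifiers and the Entrez numbers added names for 1715 and 627. A symbol with several identifiers is represented by the one with the highest mean.

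The 4 genes and all lists were chosen with earlier results of these data known. Named genes are the 4, called list genes (up to 4 with the largest change per list and comparison), list genes not expressed, and per gene the 3 likest and the most opposed in pattern. PPA1 was named beside PPA2 in addition to those taken by rule. Of the called list genes that this rule allows, some were not named, a choice made with their values seen, and the interstitial and endothelial markers named were also chosen so. Lists covered phosphate transport, phosphate sensing and control, phosphatases and pyrophosphatases, ATP release and breakdown, adenosine, nucleotide receptors, ABCC transporters and markers of interstitial, endothelial, leukocyte and cardiomyocyte cells. Alternatives were a pseudocount of 0.1, no filter, a minimum RPKM of 5, median-ratio rescaling, quantile normalization, a fit of 2 groups alone, each library left out in turn, and a replicate block.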

Additional observations from a re-analysis of the deposited data

How the results depend on the processing

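Over 24 member changes (4 genes in 6 comparisons) and 20 alternatives each, 475 of 480 values kept their direction and their side of the threshold. SLC20A2 from Stage 2 to Stage 3+DMSO changed sign, to -0.041 after median-ratio rescaling and -0.071 after quantile normalization (adjusted p = 0.728 and 0.541). ANKH between KPT and DMSO changed sign, to 0.080, without Stage 3+DMSO replicate 2, passed at -0.46 without replicate 1 (adjusted p = 0.00396), and so ranged from -0.46 to 0.080 over single left-out libraries. ENPP1 in that comparison passed at -0.21 after quantile normalization. The cause was not tested. For 52 of the changes named in list and marker genes, 1009 values kept direction and call and 20 kept the direction only. All 20 were for P2RY1 from Stage 1 to Stage 2, ABCC10 from Stage 1 to Stage 2 or Stage 3+DMSO and LUM with KPT, whose calls lie near the threshold. PANX2, PPA1, ERG and EGFL7 were not in that count. Nor were the falls of PTH1R and AK1 from Stage 2 to Stage 3+DMSO and of ENPP6 with KPT. Named list genes were chosen with their values seen, so this count is not a measure of how stable the lists are. No count of called members, genes, list genes or exons moved by over 1.5 times.

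No pairing of the libraries by replicate number was seen: 0 of 18 same-number pairs correlated over 0.1 (-0.131 to 0.0748), and 5 of 12 libraries were on average closest to their own number. Pairs of different number ran from -0.161 to 0.227. The values were centred on groups of 3 libraries, so these correlations cannot decide whether same-numbered cultures share an animal or a batch. With the replicate block, 5133 genes were called from Stage 1 to Stage 2 against 5308, and 7725 with KPT against 7831, and the counts of members called did not change. The planned ratio of SLC20A1 to SLC20A2 was not run because no row named SLC20A1 was found. ENPP1 exons, with 97 to 2355 reads each over all libraries, limit what can be seen exon by exon.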
